A study of Mus musculus with 12 samples.

Results

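The genes described here are 10 chemokine genes that act on myeloid cells or that stromal and epithelial cells make: Cxcl1, Cxcl2, Cxcl3, Cxcl5, Cxcl12, Cxcl14, Ccl2, Ccl7, Ccl20 and Cx3cl1. They were chosen by name, out of 21939 genes tested, and all 10 were found in the annotation. Open chromatin of 2 mouse tumour lines was mapped by ATAC-seq, a method in which a transposase cuts and tags DNA that is not packed into nucleosomes. The libraries were 4T1 cells (mammary carcinoma) treated with decitabine (DAC) at 1 µM for 48 h, untreated 4T1 cells, B16F10 cells (melanoma) treated with DAC at 0.1 µM for 48 h, and untreated B16F10 cells, with 3 libraries in each group and 12 in all. Dead cells were removed before transposition. DAC is a deoxycytidine analogue that traps DNA methyltransferases, so that dividing cells lose DNA methylation; neither methylation nor RNA was measured in the files used here. The labels do not say that the replicates came from separate cultures, so p-values measure only the spread between these libraries. Sequencing used one or other of 2 instrument models, and the labels do not say which library ran on which, so the part of the instrument in any difference was not tested. The dose differed between the lines, so line and dose cannot be told apart in any comparison of the 2 responses.

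Chemokines are small secreted proteins that guide leukocytes through G protein-coupled receptors. Cxcl1, Cxcl2, Cxcl3 and Cxcl5 bind Cxcr2 and attract neutrophils, Ccl2 and Ccl7 bind Ccr2 and attract monocytes, Ccl20 binds Ccr6, and Cx3cl1 is made as a membrane-bound protein that binds Cx3cr1. Cxcl12 binds Cxcr4 and Ackr3 and is a product of stromal cells, and Cxcl14 is a chemokine of normal epithelia. The Cxcr2 ligands, Ccl2 and Ccl20 are known as genes induced through NF-kappa-B, whereas Cxcl12 and Cxcl14 are known from human tumours as genes that promoter methylation can silence.

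The data are 1 peak list per library, called by the authors on each library alone. A gene start counted as called in a library when a peak overlapped any annotated transcript start plus or minus 1000 bp. "DAC alone" means a call in 3 of 3 DAC and 0 of 3 control libraries, and "control alone" the reverse. Fold enrichment is the authors' ratio of reads at the peak summit over the local background, and the strength percentile ranks a peak's −log10 q among the peaks of its own library. The lists held 50126 to 119795 peaks. On the 21 assembled chromosomes they held 112440 ± 5488 peaks in 4T1 DAC, 92033 ± 2225 in 4T1 control, 55540 ± 2536 in B16F10 DAC and 52072 ± 2122 in B16F10 control libraries (SD, n = 3 each). The background read density recovered from the lists was 5.89 ± 0.613, 4.19 ± 0.214, 1.75 ± 0.219 and 1.75 ± 0.0749 in the same groups. Peak number and read density thus moved with line in all libraries and with DAC in 4T1, and their part in each difference below was not tested beyond the filters that are given. Epithelial marker genes were called at the start in 8 of 8 cases in every 4T1 library and in 2 to 3 of 8 in B16F10 libraries. Melanocyte markers were called in 2 to 3 of 7 cases in 4T1 and in 6 of 7 in B16F10 libraries. Leukocyte markers were called in 2 to 3 of 8 cases, fibroblast markers in 3 to 4 of 6 and endothelial markers in 0 to 2 of 4. The share of all genes called in each single library was not counted. Of all genes, 50.3% were called in all 12 libraries and 27.3% in none.

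In 4T1 cells the starts of Cxcl12 and Cxcl14 were called in DAC libraries alone, and 7 of the other genes, Cxcl1, Cxcl2, Cxcl3, Cxcl5, Ccl2, Ccl20 and Cx3cl1, were called in all 6 libraries. Ccl7 had a start peak in 4T1 control replicate 3 only, and each member was called in at least 1 4T1 library, whereas 29.6% of all genes were called in none. The 2 DAC-alone starts stand beside a background of 4.42% of all genes (969 of 21939). With peaks of −log10 q of at least 5, or with equal numbers of peaks per library, Cxcl14 was no longer called so. Cxcl12 still was, but in DAC replicate 2 these filters dropped its intron peak (−log10 q of 4.40), and the call there rested on the edge of a region at −1498 bp that all 6 4T1 libraries called. With fold enrichment of at least 5 neither start was DAC-alone. No member was called in 4T1 control libraries alone, as were 0.360% of all genes. In B16F10 cells no member was called in either arm alone, beside 0.283% of all genes in DAC and 0.0866% in control libraries. Cxcl1 was the one member called in all 6 B16F10 libraries, as were 52.7% of all genes. Cxcl5, Cxcl12, Cxcl14, Ccl2, Ccl7, Ccl20 and Cx3cl1 had no start peak in any B16F10 library, as had 41.3% of all genes. Libraries called 9, 9 and 9 of the 10 starts in 4T1 DAC, 7, 7 and 8 in 4T1 control, 1, 3 and 2 in B16F10 DAC and 2, 1 and 2 in B16F10 control libraries. The share of all gene starts called in each single library, or under the filters above, was not counted. Of all genes, 59.3% were called in all 6 4T1 libraries.

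**Figure D1:**
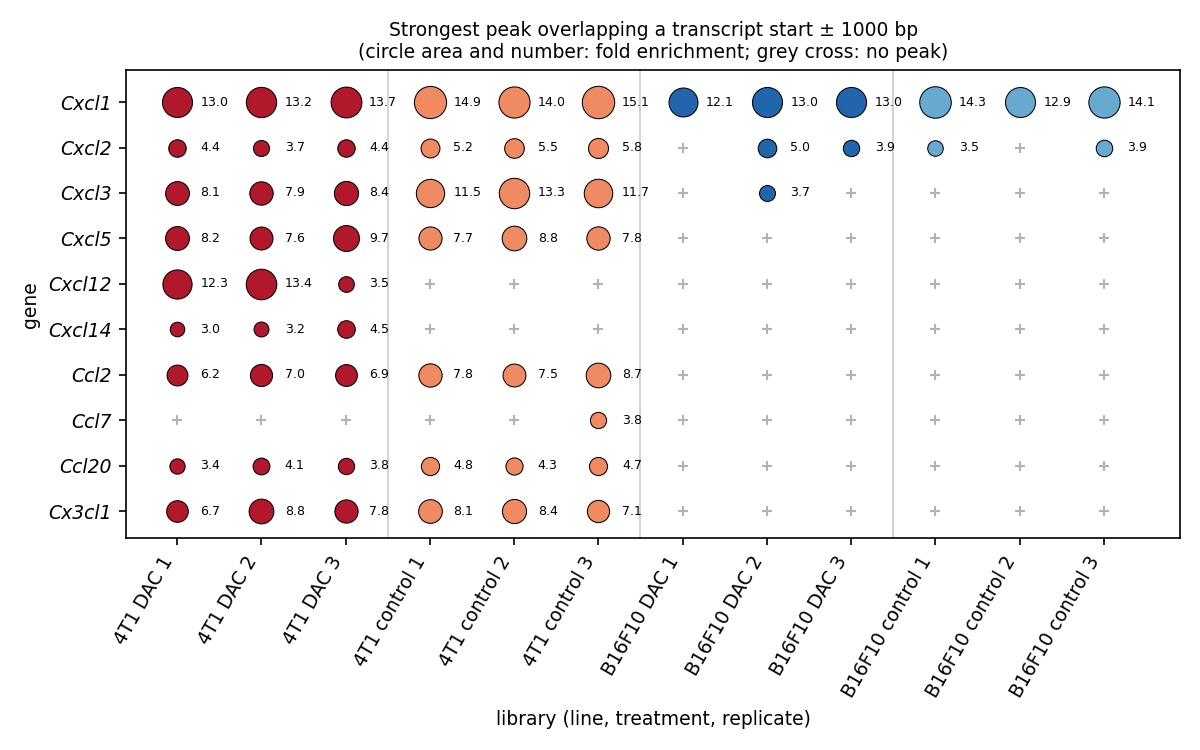
Strongest peak overlapping a transcript start plus or minus 1000 bp of each gene (rows) in each of the 12 libraries (columns), with circle area and number giving fold enrichment and a grey cross marking no peak. Cxcl12 and Cxcl14 have circles in the 3 4T1 DAC libraries and in no other library, and Cxcl1 has circles of 12.1 to 15.1 in all 12.

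The Cxcr2 ligands lie within one cluster of chromosome 5 (build mm10), with Cxcl5 at chr5:90759360-90761624, Cxcl3 at chr5:90786103-90789600, Cxcl1 at chr5:90891241-90893115 and Cxcl2 at chr5:90903871-90905938, all on the plus strand. The RefSeq promoters (build GRCm38.p6, 250 bases before to 50 after the start) of the 3 genes with an entry are printed because they carry the same NF-kappa-B motif close to the start. Capitals mark matches to the kappa-B motif and to the TATA motif.
Cxcl1, chr5:90890995-90891294, plus strand: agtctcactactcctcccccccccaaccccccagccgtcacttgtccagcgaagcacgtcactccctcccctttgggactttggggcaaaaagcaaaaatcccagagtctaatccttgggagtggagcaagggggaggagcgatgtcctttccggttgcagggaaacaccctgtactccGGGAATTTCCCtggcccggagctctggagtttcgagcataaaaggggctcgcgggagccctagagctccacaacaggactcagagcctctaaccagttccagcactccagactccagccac
Cxcl2, chr5:90903649-90903948, plus strand: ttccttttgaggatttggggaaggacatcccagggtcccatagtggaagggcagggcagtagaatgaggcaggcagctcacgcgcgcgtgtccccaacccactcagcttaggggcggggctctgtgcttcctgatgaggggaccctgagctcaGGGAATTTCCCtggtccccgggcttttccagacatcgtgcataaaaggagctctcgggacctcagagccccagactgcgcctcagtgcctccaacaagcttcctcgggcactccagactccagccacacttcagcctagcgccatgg
Cxcl3, chr5:90785851-90786150, plus strand: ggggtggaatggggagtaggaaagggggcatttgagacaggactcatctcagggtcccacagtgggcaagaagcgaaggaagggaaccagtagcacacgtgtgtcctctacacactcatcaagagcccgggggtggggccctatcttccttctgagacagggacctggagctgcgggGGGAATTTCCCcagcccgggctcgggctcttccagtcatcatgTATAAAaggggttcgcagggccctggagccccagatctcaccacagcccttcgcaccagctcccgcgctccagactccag

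Each of the 3 promoters held one palindromic stretch that gave a pair of overlapping kappa-B matches, one per strand, beginning at −71 and −70 in Cxcl1, −97 and −96 in Cxcl2 and −73 and −72 in Cxcl3. A kappa-B match was present in 8.46% of 32841 RefSeq promoters searched on both strands. Cxcl3 also held TATAAA at −30, a motif found in 13.6% of promoters. Pairwise identity over aligned bases was 71.5% to 72.8% among these 3 promoters and 55.6% to 69.8% in the other 18 pairs of the 7 member promoters with an entry. The Cxcl1 region called in both lines holds 3.43 CpG per 100 bp. Letters in a promoter describe the sequence and say nothing of whether a factor was bound.

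At the start of Cxcl1, a neutrophil attractant also called KC, fold enrichment was 13.0, 13.2 and 13.7 in 4T1 DAC and 14.9, 13.95 and 15.1 in 4T1 control libraries. In B16F10 it was 12.1, 13.0 and 13.0 with DAC and 14.3, 12.9 and 14.1 in control libraries. The 4T1 DAC libraries were all below the 4T1 controls, while the B16F10 arms overlapped. The strength percentile of that peak was 95.6, 96.2 and 96.7 in 4T1 DAC and 92.9, 91.4 and 92.6 in 4T1 control libraries, the opposite order. A region at −15007 bp was also called in all 12 libraries, with fold enrichment of 10.6, 10.9 and 11.86 in 4T1 DAC, 9.36, 9.84 and 9.64 in 4T1 control, 15.01, 18.1 and 18.5 in B16F10 DAC and 17.5, 12.4 and 10.4 in B16F10 control libraries. Cxcl1 was thus the one member with a start peak in all 12 libraries.

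Cxcl2, the neighbour of Cxcl1 and the gene of MIP-2, had a start peak with fold enrichment of 4.40, 3.71 and 4.37 in 4T1 DAC and 5.15, 5.55 and 5.76 in 4T1 control libraries. In B16F10 it was called in DAC replicates 2 and 3, at 4.97 and 3.88, and in control replicates 1 and 3, at 3.48 and 3.93. Those B16F10 calls were weak, with strength percentiles of 24.1, 8.08, 2.69 and 7.31. The summits of the Cxcl2 start peaks lay at −784 to −789 bp in 4T1, upstream of the printed promoter. In B16F10 they lay at −798 and −827 bp with DAC and at −504 and −471 bp in control libraries. The listed values thus need not describe the same site. A region upstream of Cxcl2, merged over both lines, held a peak in all 12 libraries. Its summit lay at −2978 bp in 4T1 and at −3533 bp in B16F10, so the values of the 2 lines need not describe the same site. Fold enrichment was 9.81 to 10.2 in 4T1 DAC, 9.30 to 10.3 in 4T1 control, 5.38 to 6.03 in B16F10 DAC and 5 to 7.19 in B16F10 control libraries. Cxcl3 had start peaks of 8.13, 7.85 and 8.40 in 4T1 DAC and 11.5, 13.3 and 11.7 in 4T1 control libraries, and one B16F10 call, in DAC replicate 2 at 3.66. For Cxcl2 and Cxcl3 every 4T1 DAC library lay below every 4T1 control library in fold enrichment. Cxcl5, a neutrophil attractant of epithelial cells, had start peaks of 8.20, 7.57 and 9.70 in 4T1 DAC and 7.70, 8.76 and 7.83 in 4T1 control libraries, with overlapping arms, and no peak in any B16F10 library.

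The strongest region near this cluster lay at 19233 bp downstream of the Cxcl2 start, in an intron of the lincRNA Gm42530, with fold enrichment of 25.9, 24.4 and 24.1 in 4T1 DAC and 24.5, 26.2 and 24.0 in 4T1 control libraries. It was not called in B16F10. The start of the neighbouring gene Mthfd2l, at 27361 bp, was called in all 12 libraries at 11.6 to 16.4. Between Cxcl5 and Ppbp, which encodes another Cxcr2 ligand, the 4T1 libraries shared peaks at 4834, 6604 and 8915 bp from the Cxcl5 start, and the B16F10 libraries had none there. Upstream of Cxcl5 the region at −41186 bp had fold enrichment of 7.55, 6.53 and 5.57 in 4T1 DAC and 12.3, 14.6 and 13.2 in 4T1 control libraries. That ratio of means, 0.491, was reached or undercut by 5.87% of the 67077 regions called in all 6 4T1 libraries.

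A total of 3 regions near the Cxcr2 ligands were called in 4T1 DAC libraries alone. They lay at −44994 bp from Cxcl5 (fold enrichment 5.23, 4.40 and 4.46) and at −25952 bp and −16628 bp from Cxcl1 (4.50, 5.20 and 4.94, and 3.95, 3.34 and 3.67). The region at −25952 bp consisted of soft-masked repeat for 94.6% of its length. None of the 3 lay on a gene, and no region near these 4 genes was called in control libraries alone.

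Ccl2 (chr11:82035571-82037453, plus strand) and Ccl7 (chr11:82045712-82047525, plus strand) encode monocyte attractants and are neighbours. No peak lay within 50 kb of either gene in any of the 6 B16F10 libraries, while 4T1 libraries had 8 to 11. At the Ccl2 start fold enrichment was 6.24, 7.03 and 6.85 in 4T1 DAC and 7.82, 7.54 and 8.75 in 4T1 control libraries, all DAC libraries below all controls. A second, weaker region at −918 bp was called in control libraries alone, at 2.86, 2.32 and 3.12, and the start peak itself covered 422, 466 and 412 bases in DAC and 688, 653 and 587 bases in control libraries. The region at −2457 bp likewise covered 615, 714 and 636 bases in DAC and 850, 1032 and 1335 bases in control libraries. These regions lie in an intron of Gm17268, a gene on the opposite strand, and ATAC-seq does not assign open DNA to one strand. Ccl7 had a single start peak, in 4T1 control replicate 3, with fold enrichment of 3.79, although its window held the same upstream regions as that of Ccl2.

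Ccl20 (chr1:83116766-83119167, plus strand) attracts Ccr6-bearing dendritic cells and lymphocytes. Its RefSeq promoter is printed because the 4T1 start peak, with its summit at −50 to −104 bp, lies over a kappa-B match (capitals).
Ccl20, chr1:83116516-83116815, plus strand: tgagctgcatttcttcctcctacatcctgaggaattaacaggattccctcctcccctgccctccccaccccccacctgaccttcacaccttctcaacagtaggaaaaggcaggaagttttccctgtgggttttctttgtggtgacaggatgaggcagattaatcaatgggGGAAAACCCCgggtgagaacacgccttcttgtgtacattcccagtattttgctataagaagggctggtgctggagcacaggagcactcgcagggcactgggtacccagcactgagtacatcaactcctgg

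The match began at −80, and no TATAAA was present in these 300 bases. The start peak of Ccl20 had fold enrichment of 3.36, 4.08 and 3.84 in 4T1 DAC and 4.77, 4.25 and 4.72 in 4T1 control libraries, all DAC libraries below all controls, and no B16F10 library called it. A stronger region at 3311 bp, just past the gene's end, had 16, 14.3 and 15 in 4T1 DAC and 15.6, 17.0 and 17.0 in 4T1 control libraries. In B16F10 that site was called at 4.15 in DAC replicate 3 and at 3.60, 4.51 and 3.57 in the control libraries. A region at −40470 bp was shared by all 12 libraries, at 5.81, 6.53 and 6.21 in 4T1 DAC, 4.87, 4.97 and 7.18 in 4T1 control, 6.91, 8.99 and 8.68 in B16F10 DAC and 8.63, 6.76 and 7.85 in B16F10 control libraries.

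Peaks around Ccl20 covered more bases with DAC in 4T1. The gene body plus and minus 50 kb had 6.01%, 6.08% and 5.67% of its bases under peaks in 4T1 DAC and 4.76%, 4.71% and 4.68% in 4T1 control libraries, without overlap. The difference was 1.20 percentage points (SE 0.186, adjusted p = 0.000834 by limma over 20735 genes), with 3 of 3 DAC libraries above every control. In B16F10 the same window had 0.720%, 0.570% and 1.27% with DAC and 0.731%, 1.39% and 1.07% in control libraries. Most of the added bases in 4T1 came from the region at 21245 bp, which covered 1170, 1096 and 1544 bases in DAC and 544, 592 and 617 bases in control libraries. Its fold enrichment was close in both arms, with 10.5, 10.3 and 10.5 in DAC and 10.3, 11.90 and 10.5 in control libraries. The region at −20493 bp added to it, with 653, 505 and 155 bases in DAC and 0, 154 and 173 bases in control libraries. The start peak did not: it covered 293, 433 and 371 bases in DAC and 401, 409 and 378 bases in control libraries.

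**Figure D2:**
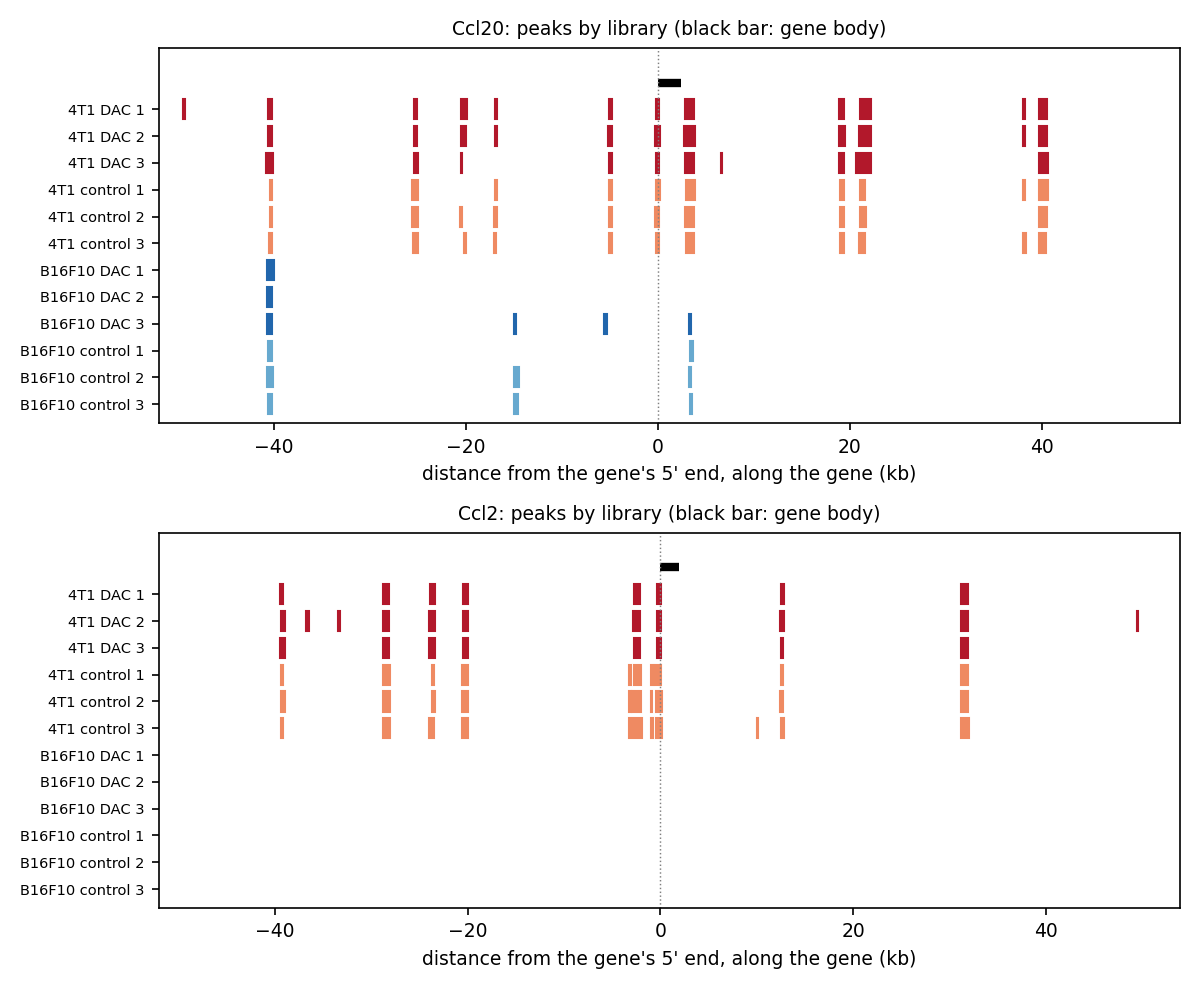
Peaks (coloured bars, drawn to scale with a thin outline) of each library (rows) by distance from the 5′ end of Ccl20 (top) and Ccl2 (bottom) in kb, with the gene body in black. The 4T1 DAC bars right of Ccl20 at 21245 bp are wider than the 4T1 control bars, and the 6 B16F10 rows of Ccl2 are empty.

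Cx3cl1 (chr8:94772009-94782427, plus strand) encodes fractalkine. Its start was called in all 6 4T1 libraries, with fold enrichment of 6.73, 8.81 and 7.78 in DAC and 8.07, 8.38 and 7.10 in control libraries, and in no B16F10 library. In the controls this was a single interval of 1614, 1653 and 1612 bases. In the DAC libraries it was split into 2 peaks that together covered 1306, 1396 and 1322 bases. Within the gene an intron region, merged over both lines, held a peak in all 12 libraries. Its summit lay at 7396 bp in 4T1 and at 6684 bp in B16F10. Fold enrichment was 3.71, 2.93 and 3.55 in 4T1 DAC, 4.08, 5.16 and 5.07 in 4T1 control, 7.45, 4.33 and 4.91 in B16F10 DAC and 5.03, 4.88 and 3.93 in B16F10 control libraries. The start peak was thus found in 4T1 alone, whereas the merged intron region held peaks of both lines with their summits apart.

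Upstream of Cx3cl1, the region at −36165 bp was called in all 6 4T1 libraries, with lower fold enrichment with DAC. Fold enrichment there was 3.34, 3.73 and 3.50 in 4T1 DAC and 10.4, 10.5 and 11.1 in 4T1 control libraries, a ratio of means of 0.330 that 0.704% of all shared 4T1 regions reached or undercut. In B16F10 the same site, with its summit at −36156 bp, was called in all 3 control and no DAC libraries, at 5.75, 3.38 and 5. These were weak calls, at strength percentiles of 22.7, 1.69 and 17.3, and a missing call gives no level with DAC. In 4T1 the region at −17479 bp had higher fold enrichment with DAC, with 6.64, 5.93 and 7.14 in DAC and 3.68, 4.61 and 4.48 in control libraries, a ratio of 1.54. A DAC-alone region of 4T1 lay at 23414 bp, with 5.53, 5.85 and 4.50, and consisted of repeat sequence throughout. Among B16F10 libraries, the 3 with DAC alone called a region at 29845 bp, with 4.23, 6.32 and 4.91, the one DAC-alone region of B16F10 near any member. In 4T1 that site was called in control replicate 3, at 3.10. The genes Ccl22 and Ccl17, which encode ligands of Ccr4, lie within this window on either side of Cx3cl1.

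Cxcl12 (chr6:117168535-117181367, plus strand) had a weak region near its start that was called in 4T1 DAC libraries alone. Other regions farther off were called in 4T1 control libraries alone. The sequences are printed to show the CpG content of the promoter, of the core of the DAC-alone intron peak and of the core of the control-alone upstream peak. The promoter is RefSeq's, the 2 peak stretches are from GRCm38, and capitals mark CpG dinucleotides.
Cxcl12 promoter, chr6:117168285-117168584, plus strand: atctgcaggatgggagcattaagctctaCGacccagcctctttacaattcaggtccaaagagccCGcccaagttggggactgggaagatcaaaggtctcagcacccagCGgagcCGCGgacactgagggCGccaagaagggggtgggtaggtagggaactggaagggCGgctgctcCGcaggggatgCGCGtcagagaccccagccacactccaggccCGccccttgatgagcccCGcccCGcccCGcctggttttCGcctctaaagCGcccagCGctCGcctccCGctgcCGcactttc
Cxcl12 intron, chr6:117168958-117169208, plus strand: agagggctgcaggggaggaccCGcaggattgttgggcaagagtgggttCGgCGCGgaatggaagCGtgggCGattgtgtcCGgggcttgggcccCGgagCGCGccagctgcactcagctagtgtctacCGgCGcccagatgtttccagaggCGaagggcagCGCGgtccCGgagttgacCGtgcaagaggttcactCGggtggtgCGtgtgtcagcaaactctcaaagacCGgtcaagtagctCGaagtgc
Cxcl12 upstream, chr6:117163059-117163209, plus strand: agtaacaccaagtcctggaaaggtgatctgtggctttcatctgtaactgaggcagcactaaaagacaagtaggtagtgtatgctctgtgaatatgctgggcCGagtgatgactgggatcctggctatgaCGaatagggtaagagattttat

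The promoter held 20 CpG in 300 bases, at percentile 75.2 of RefSeq promoters, and 5 matches to the GC box GGGCGG or its reverse complement, a motif found in 35.7% of promoters. The intron stretch held 21 CpG in 251 bases and the upstream stretch 2 in 151. The intron region (chr6:117168632-117169346, summit at 548 bp) was called at fold enrichment of 3.58, 2.66 and 3.54 in the 3 4T1 DAC libraries and in no control. These were weak peaks, at strength percentiles of 24.7, 9.7 and 21.7. The upstream region at −5401 bp (chr6:117162906-117163454) was called at 8.96, 10.3 and 9.58 in the 3 4T1 control libraries, at strength percentiles of 41.1, 48.6 and 45.4, and in no DAC library.

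Between them, the region at −1498 bp was called in all 6 4T1 libraries, with fold enrichment of 12.3, 13.4 and 13.4 in DAC and 10.5, 10.3 and 9.98 in control libraries, all DAC libraries above all controls. In DAC replicates 1 and 2 its edge reached into the 1000 bp before the start, which gives the larger circles in the plot of start peaks; without it the unfiltered call in DAC libraries alone held on the intron peak. With 2000 bp on either side this region fell inside the window in every 4T1 library, and Cxcl12 was no longer a DAC-alone gene. Farther downstream a site at 24293 bp had 6.97, 7.06 and 7.17 in DAC and 17.8, 14 and 13 in control libraries, a ratio of 0.473 that 4.89% of shared regions reached or undercut. The region at 51492 bp was called in control libraries alone, at 4.68, 5.89 and 5.19.

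Among the Cxcl12 regions that 4T1 called in DAC libraries but not in controls, 2 coincided with regions of B16F10. The region at 28694 bp was called in 4T1 DAC libraries alone, at 3.20, 4.13 and 3.66. In B16F10 it was called in all 3 DAC libraries, at 6.09, 10.0 and 7.55, and in control replicates 1 and 3, at 6.11 and 5.35. The exon region at 5553 bp was called in 4T1 DAC replicates 2 and 3, at 3.59 and 3.85, and in all 6 B16F10 libraries, at 8.45, 9.39 and 9.43 with DAC and 9.35, 6.01 and 8.57 in control libraries. The exon region at 10067 bp was the strongest of the gene in 4T1, with 15.9, 13.0 and 13.7 in DAC and 18.9, 18.2 and 17.6 in control libraries, and was not called in B16F10. Over the whole window Cxcl12 had 3.37%, 3.53% and 2.73% of its bases under peaks in 4T1 DAC and 3.38%, 3.29% and 3.12% in 4T1 control libraries (difference −0.0535 percentage points, SE 0.214, adjusted p = 0.855 by limma).

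Cxcl14 (chr13:56288643-56296551, minus strand) had the other DAC-alone start. Its RefSeq promoter is printed for its CpG dinucleotides (capitals), since the end of it overlaps the DAC-alone peak.
Cxcl14, chr13:56296502-56296801, minus strand: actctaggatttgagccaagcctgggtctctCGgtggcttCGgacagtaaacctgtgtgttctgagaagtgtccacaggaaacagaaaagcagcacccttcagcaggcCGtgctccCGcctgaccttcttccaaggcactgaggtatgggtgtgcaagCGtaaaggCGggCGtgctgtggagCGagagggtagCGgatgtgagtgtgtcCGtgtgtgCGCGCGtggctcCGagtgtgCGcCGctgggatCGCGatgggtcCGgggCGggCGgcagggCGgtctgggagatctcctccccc

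It held 22 CpG in 300 bases, at percentile 78.5 of RefSeq promoters, and 3 GC box matches from 12 to 24 bases past the start. The DAC-alone region covered part of the exon at the start (chr13:56296167-56296576) at 9.76 CpG per 100 bp. Its fold enrichment was 3.05, 3.20 and 4.46 in the 3 4T1 DAC libraries, at strength percentiles of 8.38, 13.0 and 26.8, so the peaks were among the weaker ones of their libraries. A second DAC-alone region of 4T1, at 44871 bp, lay on an exon of Neurog1, a neurogenic transcription factor gene, at 3.49, 3.33 and 3.19. A region at −8235 bp was called in 4T1 control libraries alone, at 5.07, 5.16 and 3.99.

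The window of Cxcl14 had 1.63%, 1.501% and 1.84% of its bases under peaks in 4T1 DAC and 1.02%, 1.15% and 1.06% in 4T1 control libraries, without overlap. The difference was 0.580 percentage points (SE 0.101, adjusted p = 0.00161 by limma), with 3 of 3 DAC libraries above every control. It reversed to −0.224 when only peaks of fold enrichment of at least 5 were kept and to −0.141 with equal numbers of peaks per library, so it rests on the weaker peaks. In B16F10 the window had 2.39%, 1.85% and 1.68% with DAC and 2.43%, 2.48% and 1.44% in control libraries, and no start peak. The region at 29942 bp was the one region near any member that all 6 B16F10 and no 4T1 libraries called, with 6.53, 9.65 and 6.79 in DAC and 9.35, 10.5 and 7.46 in control libraries.

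**Figure D3:**
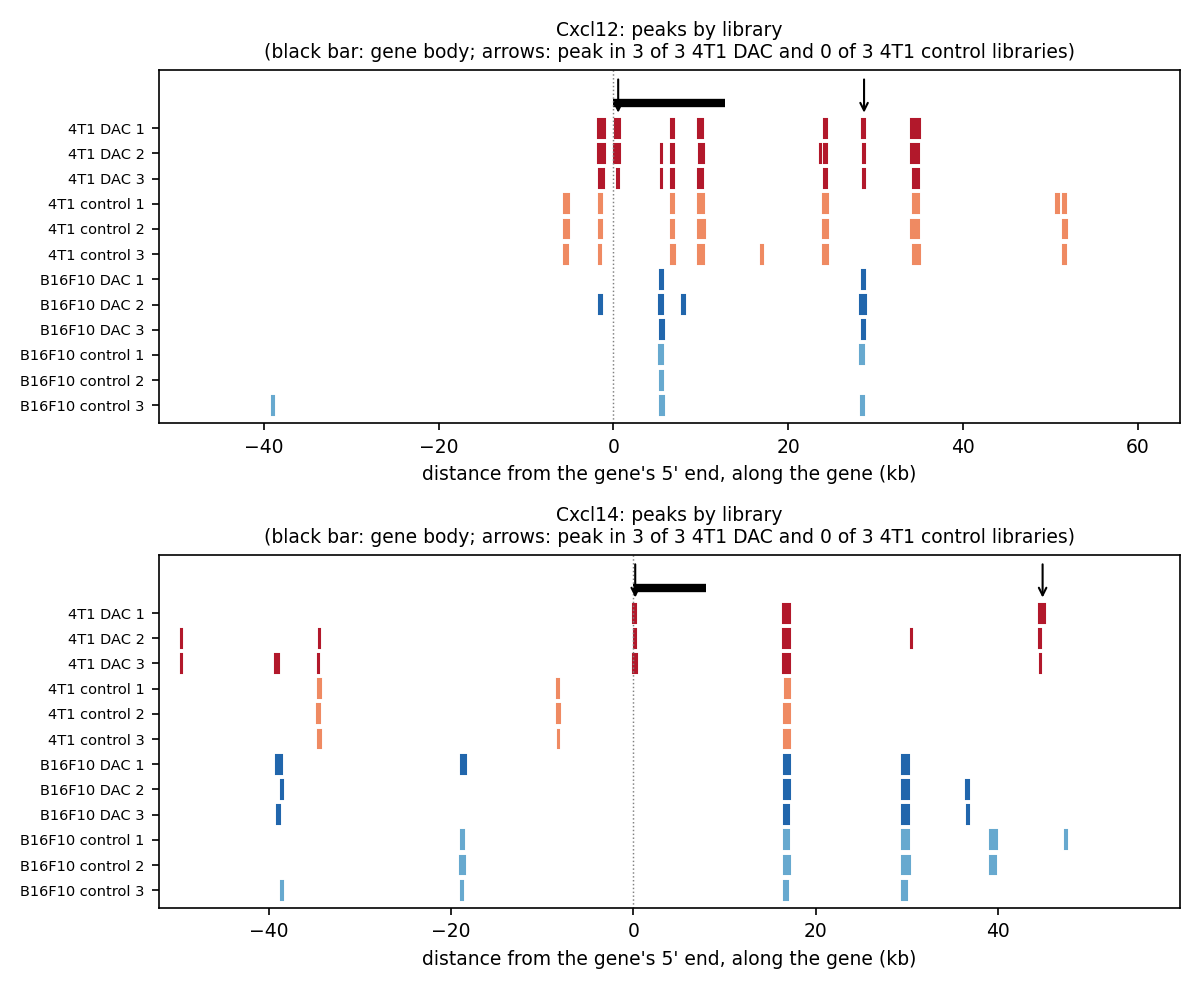
Peaks (coloured bars, drawn to scale with a thin outline) of each library (rows) by distance from the 5′ end of Cxcl12 (top) and Cxcl14 (bottom) in kb, with the gene body in black. Arrows mark the 2 regions of each gene called in the 3 4T1 DAC libraries and in no 4T1 control library.

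Cxcl12 and Cxcl14 differed from the other 8 genes in CpG density over the 2000 bases around the start. They had 6.35 and 5.45 CpG per 100 bp, in the highest 20% of all genes, at percentiles of 88.4 and 81.0. The other 8 had 0.550 to 2.95 CpG per 100 bp, at percentiles of 12.02 to 48.6. Each of these 8 had a start call in a 4T1 control library, so none could be called in DAC libraries alone. Of all genes in that 20%, 7.82% were called in 4T1 DAC libraries alone, and of those without any control call in 4T1, 70.6% were (343 of 486). In the lowest 20%, which holds Ccl2, Ccl7 and Ccl20, the same 2 shares were 1.57% and 1.83% (69 of 3774). The 2 DAC-alone starts thus had the CpG density at which such calls were most frequent across the genome. In the 300 bases of the RefSeq promoters the gap was narrower. Cx3cl1, called at the start in all 6 4T1 libraries, held 19 CpG there, at percentile 73.5. Cxcl12 held 20 (percentile 75.2) and Cxcl14 22 (percentile 78.5). By the states of all 12 libraries, 762 genes had the same pattern as Cxcl12 and Cxcl14. The closest in strength percentile were Map10, Ces2h and Fam83g to Cxcl12 and Adamts18, Galntl6 and Tmem63c to Cxcl14. For Cxcl12 in DAC replicates 1 and 2, that percentile (77.1 and 80.6) was of the region at −1498 bp, not of the intron peak. All 6 4T1 libraries called that region.

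Across the windows of the 10 genes, 102 regions were found in 4T1, 59 of them called in all 6 libraries (57.8%, beside 45.7% of all 4T1 regions). The DAC-alone regions numbered 8 (7.84% of 102, beside 12% of all 4T1 regions) and the control-alone regions 4 (3.92%, beside 3.57%). The 8 were at Cxcl12, Cxcl14, Cxcl1, Cxcl5 and Cx3cl1, and the 4 at Cxcl12, Cxcl14 and Ccl2. CpG density had a median of 5.66 per 100 bp in the 8 DAC-alone regions and 1.10 in the 4 control-alone regions, beside 3.05 and 0.912 over all such 4T1 regions. In the 59 shared regions the median was 1.28, beside 1.39 over all shared regions. In B16F10 there were 29 regions, 11 of them in all 6 libraries (37.9%, beside 45.3%), 1 in DAC libraries alone (3.45%, beside 2.26%) and 1 in control libraries alone (3.45%, beside 0.886%).

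**Figure D4:**
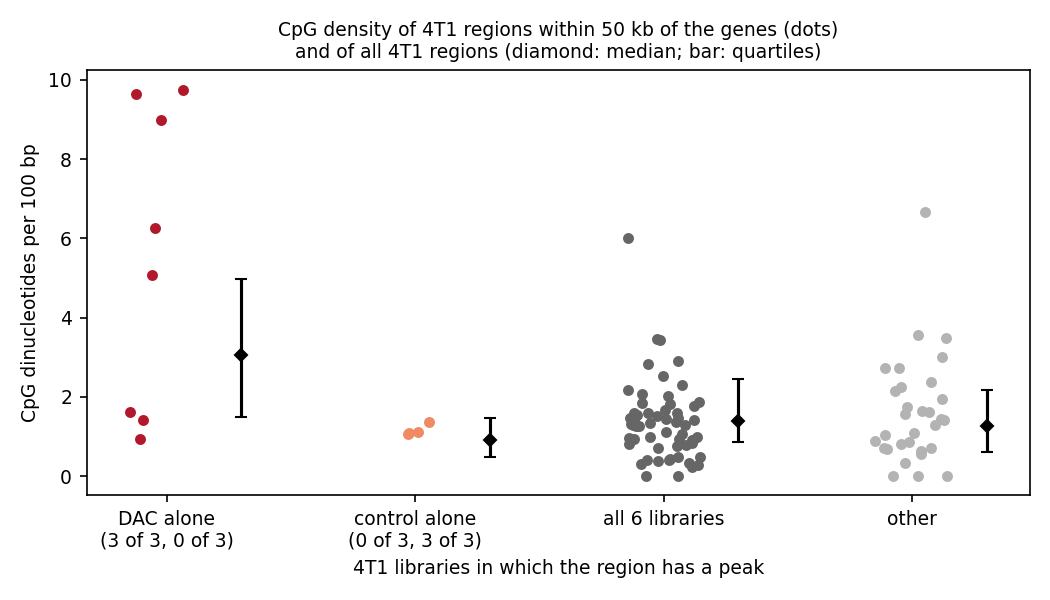
CpG dinucleotides per 100 bp (vertical axis) of the 102 4T1 regions within 50 kb of the genes (dots), by the libraries in which they have a peak, with the median (diamond) and quartiles (bar) of all 4T1 regions of that kind. Of the 8 DAC-alone dots, 5 lie between 5.07 and 9.76 and 3 between 0.939 and 1.61, and the 4 control-alone dots lie between 1.06 and 1.38.

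Where a region was called in every 4T1 library, its fold enrichment was more often lower with DAC. Among the 59 shared regions, all DAC libraries were below all controls in 27 (45.8%, beside 55.9% of all shared regions) and above them in 5 (8.47%, beside 12.3%). By strength percentile the split was the other way, with 25 above (42.4%, beside 43.9%) and 11 below (18.6%, beside 18.7%). The median ratio of mean fold enrichment, DAC over control, was 0.873 near the members and 0.849 over all shared regions. The lower fold enrichment at the starts of Cxcl1, Cxcl2, Cxcl3, Ccl2 and Ccl20 is a direction that most shared regions had.

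The share of bases under peaks was compared by limma in all genes with a peak in the window. With DAC in 4T1, Ccl20 and Cxcl14 rose and no member fell, beside 30.5% of all genes that rose and 15.8% that fell (20735 genes). Counted as peak summits in the same windows, neither passed (1.33 more summits and adjusted p = 0.0887 for Ccl20, 2 more and adjusted p = 0.157 for Cxcl14, by limma). By that count Cxcl1, Cxcl2 and Cxcl5 rose, beside 6399 of 20732 genes, and the median over all genes was 1 more summit. In percent of bases the other 8 genes had differences of −0.563 to 0.309 percentage points, with adjusted p from 0.135 to 0.984. Both ends of that range had neighbours in the same window, Ccl2 and Ccl7 at −0.563 each and Cxcl1 and Cxcl2 at 0.309 and 0.255, since the 10 windows merge into 7 loci. The median over all genes was 0.110 percentage points. Scaled to the total of covered bases per library, 2 members rose and 6 fell, namely Cxcl2, Cxcl3, Cxcl5, Ccl2, Ccl7 and Cx3cl1, beside 4504 genes that rose and 8368 that fell, and the median over all genes moved to −0.166. Ccl2 and Ccl7 also fell in the unscaled fit once 4T1 DAC replicate 2 was left out, with adjusted p = 0.0461 for Ccl2. With DAC in B16F10 none of the 8 genes with a peak passed, with adjusted p from 0.527 to 0.885, beside 0.0157% of all genes that rose and 0.00% that fell (19122 genes). At an unadjusted p under 0.05 the count was also 0 of 8.

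The difference between the 2 DAC effects, tested as an interaction over 20899 genes, passed for Ccl20 at 1.41 percentage points (SE 0.306, adjusted p = 0.00368). It did not pass for the other 9, with adjusted p from 0.134 for Cxcl14 to 0.978 for Cxcl2. Genes with a larger effect in 4T1 made up 20.4% and those with a smaller one 10.1%. The interaction of Ccl20 no longer passed with equal numbers of peaks, with scaling to the total of covered bases, on a log2 scale or for numbers of summits.

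**Figure D5:**
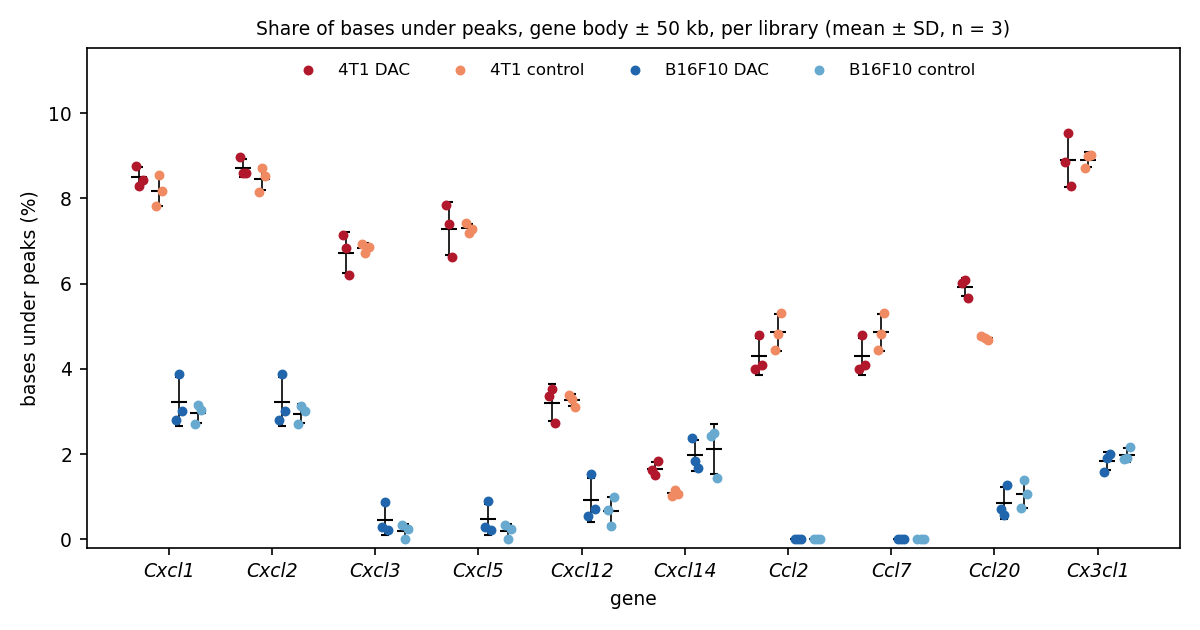
Percentage of bases under peaks in each gene body plus and minus 50 kb (vertical axis) for the 10 genes and 4 groups, with a point per library and the mean and SD of 3 libraries in black. For Ccl20 the 4T1 DAC points (5.67 to 6.08) lie above the 4T1 control points (4.68 to 4.76), and for all genes except Cxcl14 the 4T1 points lie above the B16F10 points.

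Between the lines the starts of Cxcl5, Ccl2, Ccl20 and Cx3cl1 were called in all 6 4T1 and no B16F10 libraries, beside 6.11% of all genes. With fold enrichment of at least 5, or with equal numbers of peaks, the 4 genes were Cxcl3, Cxcl5, Ccl2 and Cx3cl1. No member was called in B16F10 alone, beside 0.875%, and Cxcl1 was called in all 12 libraries, beside 50.3%. Of 112 regions merged over both lines, 44 (39.3%) were called in all 6 4T1 and no B16F10 libraries, beside 19% of all 179635 regions, and 1 (0.893%) in all 6 B16F10 and no 4T1 libraries, beside 5.34%. The 44 included 10 near Cxcl5, 10 near Cx3cl1, 9 near Cxcl3 and 8 in the window shared by Ccl2 and Ccl7, with windows that overlap counted for each gene. With equal numbers of peaks in the 12 libraries the counts were 24 and 3, and the shares of all regions in that setting were not counted.

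In untreated cells, bases under peaks were higher in 4T1 than in B16F10 for 9 of the 10 genes and lower for Cxcl14. Beside them stood 75.5% and 8.86% of all 19913 genes, so in this fit the count of 9 of 10 is not far from the background. The median difference was 5.04 percentage points over the members and 1.34 over all genes. The differences of the 9 ran from 2.60 percentage points for Cxcl12 (SE 0.172, adjusted p = 1.06e-06) to 7.11 for Cxcl5 (SE 0.162, adjusted p = 1.93e-08). With equal numbers of peaks the same 9 were higher, beside 10514 of 19349 genes. With scaling to the total of covered bases they were also higher, beside 5958 of 19913. Cxcl5 had 7.41%, 7.19% and 7.29% in 4T1 control and 0.334%, 0% and 0.234% in B16F10 control libraries. Cxcl14 differed by −1.04 percentage points (SE 0.249, adjusted p = 0.00379), a call that was lost when only peaks of −log10 q of at least 5 or fold enrichment of at least 5 were kept and within 20 kb. In treated cells, where the doses differed, the same 9 genes were higher in 4T1, beside 75.8% of all genes, and Cxcl14 differed by −0.316 (SE 0.191, adjusted p = 0.149), beside 6.70% of all genes that were lower.

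The number of peaks in a window was compared by an exact two-sided permutation test of the treatment labels, which cannot go below p = 0.10 with 3 libraries against 3. In 4T1 the smallest p was reached for Cxcl1 (12.3 ± 0.577 peaks with DAC and 10.3 ± 0.577 in controls), Cxcl2 (13 ± 0 and 11.3 ± 0.577) and Cxcl5 (15.3 ± 0.577 and 13 ± 1; SD, n = 3 each), and in B16F10 for none. Cxcl1 and Cxcl2 lie in one locus and share most of these peaks, so their results are not separate. The share of all genes that reach the smallest p was not counted. Over all genes, the median difference between DAC and control in 4T1 was 1 more summit. With the labels of each line permuted separately and both lines read together, the lowest exact p was 0.03, for Cxcl5, and its adjusted p over all genes was 0.242.

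Other genes of the chemokine system were read from 5 lists. Of all 21939 genes, 50.3% were called at the start in all 12 libraries and 27.3% in none. The shares called in 4T1 alone and in B16F10 alone were 6.11% and 0.875%. Within 4T1, 4.42% were called in DAC libraries alone and 0.360% in control libraries alone. Of 10 receptors of these ligands, 2 to 3 were called at the start per library and 6 in none. Cxcr4, the receptor of Cxcl12, was called in 4T1 alone and Ccr6, the receptor of Ccl20, in B16F10 alone. Of 26 other chemokine ligands, 8 to 9 were called per 4T1 library and 5 to 6 per B16F10 library, with 14 in none. Ccl4 was the one called in 4T1 DAC libraries alone. Cxcl9, Cxcl10, Cxcl16 and Ppbp were called in 4T1 alone, and Ccl5, a T cell attractant, in B16F10 alone. All 16 regulators of the NF-kappa-B and C/EBP families were called in all 12 libraries, so their starts did not separate the lines or treatments. Of 11 proteases and heparan sulfate enzymes that act on chemokines, 8 were called in all 12 libraries and Mmp12, a macrophage elastase, in 4T1 alone. Of 10 myeloid growth factors and cytokines, 5 were called in all 12 libraries and Il1a, the gene of interleukin-1 alpha, in 4T1 alone. Of the marker genes, Sox10 was called in 4T1 DAC libraries alone and Spi1 in 4T1 control libraries alone.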

How the data were processed

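The samples were 12 ATAC-seq libraries, 3 for each of 4 groups, and groups were taken from the labels. The submitters' processing notes name ChIPseeker, DiffBind, MACS2, Picard, Bowtie2, FastQC and MultiQC, and the mm10 build, without versions, roles or options. One deposited peak list per library was used. Its fold enrichment is a ratio that the authors' peak caller gave each peak over the local background of the same library, and the deposited −log10 of the p-value and of the q-value grow with depth. The deposited score restates the −log10 q-value and was not used. The deposited summit position within a peak is also the authors'. The lists hold no read counts, so depth is unknown beyond a background read density worked out from each peak's p-value and fold enrichment, and no counting interval can be given. More deeply sequenced libraries call more weak peaks, and 4T1 DAC libraries had the highest density.

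Peaks on 21 chromosomes were matched to 21939 genes of GENCODE release 21 for the mouse (GRCm38, the assembly that mm10 names). Regions were peaks merged where they overlapped by at least 1 bp. Called genes and regions were counted by the rule of 3 of 3 against 0 of 3 libraries (6 of 6 against 0 of 6 between lines) and set beside all genes or regions. The percent of bases under peaks in each gene body plus and minus 50 kb was fitted over all genes with limma 3.58.1 (R 4.3.3) with a trend. The p-values were adjusted over all genes by Benjamini and Hochberg's method at 0.05. The fit was also run on simulated data drawn as independent normal values. Such values lack the overlapping windows and the floor of the real ones, so that run cannot show how the fit behaves there. Peak numbers were compared by exact permutation. Promoter sequences came from RefSeq (7 of 10 genes matched), and the kappa-B, TATA and GC box motifs were searched on both strands. Promoters were compared in a global alignment with Biopython 1.88. Genes named from the 5 lists are those called in one arm or line alone. The members and lists were chosen with earlier results of these data known. Alternatives were stricter peaks, equal peak numbers, scaling, other windows, a replicate block and each library left out.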

Additional observations from a re-analysis of the deposited data

Results flagged for a closer look

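The effect of DAC on the share of bases under peaks around Ccl20 differed between the lines. In 4T1 the window had 5.92 ± 0.218% of its bases under peaks with DAC and 4.72 ± 0.0384% in controls. In B16F10 it had 0.853 ± 0.368% with DAC and 1.06 ± 0.329% in controls (SD, n = 3 each). The difference between the 2 effects was 1.41 percentage points by limma's interaction term (adjusted p = 0.00368 over 20899 genes). Across the alternatives without a left-out library its adjusted p ran from 0.000111 to 0.223. The doses were 1 µM in 4T1 and 0.1 µM in B16F10, so dose and line cannot be told apart.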

How the results depend on the processing

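The 2 members called at the start in 4T1 DAC libraries alone became 1 with −log10 q of at least 5 (Cxcl12), 0 with fold enrichment of at least 5, 1 with 2000 bp on either side (Cxcl14) and 1 with equal numbers of peaks (Cxcl12). Under the q filter and equal numbers, the Cxcl12 call in DAC replicate 2 rested on the edge of the region at −1498 bp, which all 6 4T1 libraries called. With fold enrichment of at least 5, 1 member (Cxcl2) was called in 4T1 control libraries alone. The starts called in 4T1 alone numbered 4 to 5 under every alternative and every left-out library. The shares of all genes under these alternatives were not counted, so the changes cannot be read as particular to the members.

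The 8 DAC-alone regions of 4T1 became 4 with the stricter q, 1 with fold enrichment of at least 5, 4 with equal numbers of peaks, 5 within 20 kb, 14 within 100 kb and 15 with 2 of 3 libraries, and the 4 control-alone regions became 7 with equal numbers of peaks. In B16F10 the 1 DAC-alone region became 0 under both filters and 2 within 100 kb or with 2 of 3 libraries, and the 1 control-alone region became 0 under both filters and within 20 kb and 2 with equal numbers of peaks or with 2 of 3 libraries. Of the regions between lines, the 44 of 4T1 became 24 with equal numbers of peaks. The 1 of B16F10 became 2 with fold enrichment of at least 5 and 3 with equal numbers of peaks. It became 0 within 20 kb and 6 within 100 kb. No share of all regions was counted under these alternatives or with a library left out. The changes in these counts therefore cannot be read as particular to the members.

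In the limma fit of 4T1, 1 member rose with fold enrichment of at least 5, beside 2777 of 19912 genes. With equal numbers of peaks 1 rose, beside 4135 of 20339, and within 100 kb 4 rose, beside 7509 of 21313. In numbers of summits 3 rose, Cxcl1, Cxcl2 and Cxcl5, beside 6399 of 20732 genes, and neither Ccl20 nor Cxcl14 did. Members that fell numbered 5 under a fold enrichment of 5 or more, beside 6350 of 19912 genes, and 4 with equal peak numbers, beside 6071 of 20339. They numbered 6 with scaling, beside 8368 of 20735 genes, and 2 in 20 kb windows, beside 3204 of 19816. Cxcl14 reversed to −0.224 and −0.141 under the first 2 of these. Among members without a call, Cxcl1 went to −0.840 and Cxcl2 to −0.834 with fold enrichment of at least 5, Cxcl2 to −0.468 with scaling and Cxcl5 to 2.33 in numbers of summits. Between untreated lines, Cxcl14 was no longer lower (0 members) with either filter and within 20 kb. Between treated lines, 1 member (Cxcl14) was lower under a fold enrichment of 5 or more, equal peak numbers and scaling. Beside it stood 2025 of 20065, 4565 of 19747 and 9388 of 20824 genes. The interaction had 0 larger effects in 4T1 with equal numbers of peaks, scaling, log2 values and summits. Beside these stood 1853 of 19891, 2821 of 20899, 2987 of 20899 and 4452 of 20896 genes. Within 100 kb it had 2, beside 5061 of 21412. Smaller effects numbered 2, 2, 3 and 2 under a fold enrichment of 5 or more, equal peak numbers, scaling and 20 kb windows. Beside these stood 3787 of 20202, 3624 of 19891, 3241 of 20899 and 2058 of 20057 genes. Except where construction shows it, the cause was not tested.

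With 1 library left out, ranges were 8 to 11 and 4 to 5 for the DAC-alone and control-alone regions of 4T1, 1 to 2 for each kind in B16F10 and 44 to 46 for the regions of 4T1 alone. Members that fell in 4T1 numbered 0 to 2 (2 without 4T1 DAC replicate 2, beside 3516 of 20623 genes). In the interaction, larger effects numbered 1 to 2 (2 without B16F10 control replicate 3, beside 3733 of 20889 genes). Smaller ones numbered 0 to 2 (2 without 4T1 DAC replicate 2, beside 2331 of 20817 genes). Deviations of same-numbered DAC and control libraries from their group means had correlations of −0.00567, 0.0962 and 0.0536 in 4T1. These values cannot show whether same-numbered libraries were handled together, so a pairing is unknown. A replicate block gave 2 members that rose and 0 that fell in 4T1 and changed no other member's call. The lists limit these results to called peaks, and weak peaks depend on depth.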
